A study of Homo sapiens with 4 samples.

Results

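Notch pathway genes were followed in SK-N-BE(2) cells after METTL14 knockdown: the receptors NOTCH1, NOTCH2 and NOTCH3, the ligands DLL1, DLL3, JAG1 and JAG2, and the transcriptional repressor family members HES1, HES6 and HEY1. These 10 genes were taken by symbol from the 60671 Ensembl gene rows of the count table, whatever their level, and 8 of them held enough counts to be tested. HEY1, HES6 and JAG1 rose in shMETTL14 cells, to 157%, 132% and 227% of their mean level in shNC cells. These 3 were 37.5% of the 8, whereas 52.5% of all genes tested passed the test in either direction. HES6 and JAG1 each failed it in 2 of 11 alternative analyses. None of the 8 fell by the test, and neither NOTCH2 nor NOTCH3 passed it. Levels are given as CPM, counts scaled to a common library size after TMM scaling, a correction for differences in library composition.

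SK-N-BE(2) is an established human neuroblastoma cell line with amplified MYCN. A short hairpin RNA, which was either a control (shNC) or aimed at METTL14 (shMETTL14), was expressed in the cells. METTL14 is a subunit of the enzyme that places N6-methyladenosine on RNA, and each group had 2 libraries. The study made its knockdown cells with the pLKO.1 lentiviral vector and puromycin selection, and names 2 hairpins against METTL14, but the labels do not say which one these libraries carry. Nor do they say whether libraries of a group came from separate cultures, so the p-values measure only the spread between these libraries, which may be technical.

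Notch receptors are single-pass membrane proteins that bind Delta-like and Jagged ligands on neighbouring cells. Ligand binding exposes the receptor to cleavage by ADAM proteases and then by gamma-secretase, which frees an intracellular domain that enters the nucleus, joins the DNA-binding protein RBPJ and the Mastermind coactivators, and turns on HES and HEY genes. HES and HEY proteins repress proneural genes, and the pathway is known in the sympathetic nervous system and in neuroblastoma for its part in neuronal differentiation.

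The promoters of HES1 and JAG1 are shown, the first because it is a textbook direct target of RBPJ and the second because JAG1 had the largest fold change among the 10 genes. DLL1, DLL3 and HEY1 had no entry among the RefSeq promoters used, so theirs were not searched. Sequences are RefSeq promoters on GRCh38.p14, available for the other 7 of the 10 genes. They read 5′ to 3′ on the strand of the gene, the HES1 stretch from 200 to 11 bases before the start (chr3:194135948-194136137, plus strand) and the JAG1 stretch from 250 to 1 bases before it (chr20:10674000-10674249, minus strand). Capitals mark the RBPJ core, TGGGAA.
HES1: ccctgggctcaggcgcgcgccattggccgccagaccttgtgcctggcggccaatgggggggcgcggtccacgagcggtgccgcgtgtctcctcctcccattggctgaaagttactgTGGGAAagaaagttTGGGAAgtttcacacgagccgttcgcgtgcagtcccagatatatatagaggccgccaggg
JAG1: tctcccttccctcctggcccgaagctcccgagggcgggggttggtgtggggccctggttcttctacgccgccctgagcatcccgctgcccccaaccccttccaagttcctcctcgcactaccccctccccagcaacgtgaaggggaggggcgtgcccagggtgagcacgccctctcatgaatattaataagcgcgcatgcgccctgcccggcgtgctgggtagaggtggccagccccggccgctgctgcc

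The search covered 250 bases before the start on both strands for the RBPJ core (TGGGAA, or TTCCCA on the other strand) and for the N-box bound by HES proteins (CACNAG, or CTNGTG). The RBPJ core lay in 20.8% of 35116 RefSeq promoters and the N-box in 32.0%. HES1 held 2 RBPJ cores, whose first bases lay 84 and 70 before the start and both on the strand of the gene, and 3 N-boxes, at 165, 132 and 58. NOTCH3 held 1 N-box, at 211. NOTCH1, NOTCH2, JAG1, JAG2 and HES6 held neither set of letters. Nor did NRARP, a further target gene described below. Such an absence says only that these letters are not in this window. RefSeq starts set the windows, and that of HES6 lay inside the gene coordinates given below. Annotated exons of any gene covered 126 bases of the window for NOTCH1, 86 for HES6, 48 for JAG2 and 3 for HES1.

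METTL14, the targeted gene, had 753 and 754 counts in the shNC libraries and 303 and 321 in the shMETTL14 libraries. Its level fell to 41.7% of shNC, from 38.6 ± 1.13 to 16.1 ± 0.851 CPM (SD, n = 2), or -1.26 on the log2 scale (SE 0.0832, adjusted p = 3.6e-11, edgeR quasi-likelihood test). Gene counts per library ran from 18925786 to 19886214. Of 16309 genes tested, 8561 or 52.5% were called at an adjusted p under 0.05, of which 4438 (27.2%) were higher and 4123 (25.3%) lower. The smallest two-sided p that an exact permutation of 4 libraries in 2 groups allows is 0.333, and the calls depend on the variance model that edgeR fits over all genes.

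Against that background, 3 of the 8 tested Notch genes were called, or 37.5%, all 3 higher. The median log2 fold change of all 8 was 0.24, beside -0.00095 over all genes tested. The groups did not overlap in 6 of the 8 (NOTCH2, DLL3, JAG1, HES1, HES6 and HEY1), and this held for 75.5% of all genes tested. JAG1 was the 1 gene of the 8 that was called with a change of at least 2-fold, a limit that 8.79% of all genes tested met.

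**Figure D1:**
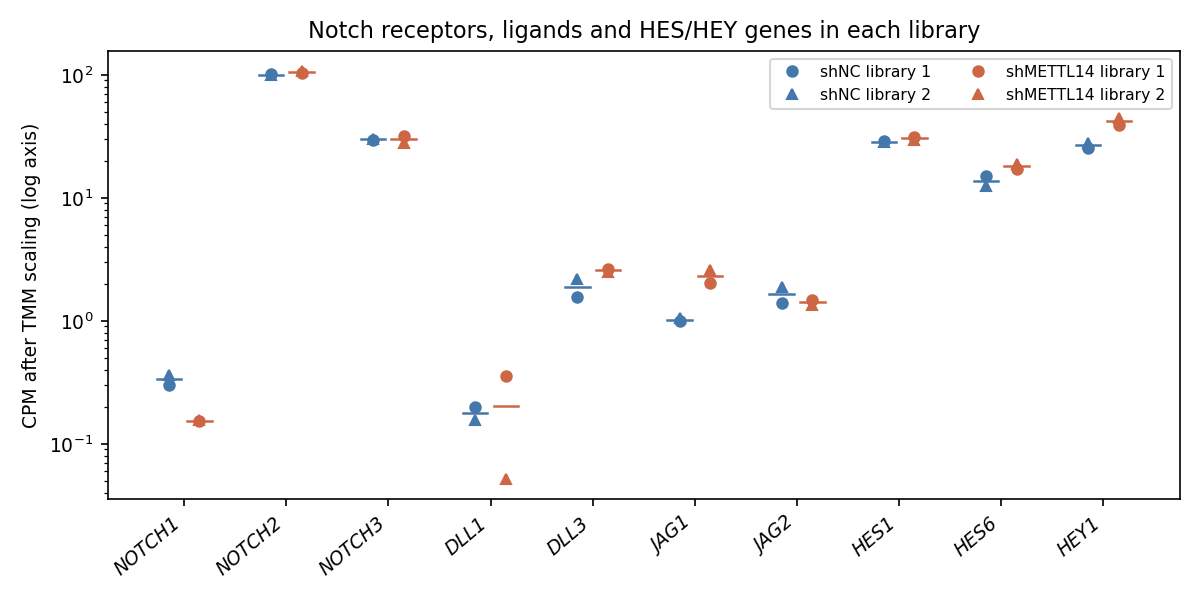
Level of each of the 10 Notch genes in CPM after TMM scaling (log axis) in each library, with the group mean as a bar; circles are library 1, triangles library 2, blue shNC and red shMETTL14. HEY1, HES6 and JAG1 stand higher in both shMETTL14 libraries, NOTCH2 lies near 100 CPM in all 4, and NOTCH1 and DLL1 lie under 1 CPM.

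The receptors differed widely in level, and NOTCH2 and NOTCH3 differed little between groups. NOTCH2 (ENSG00000134250, chr1:119911553-120069626, minus strand), a receptor expressed in many tissues, had 2008 and 1900 counts with shNC and 2028 and 2064 with shMETTL14. Its CPM were 100.7 and 99.2 against 104 and 107, so both knockdown libraries lay above both controls. The log2 fold change of 0.08 (SE 0.0459, 95% interval -0.02 to 0.17) did not pass the test (adjusted p = 0.172). Near-identical partial copies of NOTCH2 took few counts: NOTCH2NLC had between 28 and 56 per library, NOTCH2NLA between 0 and 6, and NOTCH2NLB, NOTCH2NLR and NOTCH2P1 had 0. Reads that match NOTCH2 and a copy equally are not measured by these counts, so NOTCH2 is uncertain to that extent.

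NOTCH3 (ENSG00000074181, chr19:15159038-15200981, minus strand), a receptor best known from vascular smooth muscle, had 589 and 580 counts with shNC and 625 and 539 with shMETTL14. In CPM these were 29.6 and 30.3 against 31.9 and 28.0, and the knockdown libraries enclosed the controls. The log2 fold change was 0.0027 (SE 0.0812, 95% interval -0.17 to 0.17, adjusted p = 0.983). Its sign turned under other scalings, and the interval leaves room for a change of 0.17 on the log2 scale in either direction.

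NOTCH1 (ENSG00000148400, chr9:136494433-136545786, minus strand), a receptor central to neural and T cell development, was close to the floor of detection. It had 6 and 7 counts with shNC and 3 and 3 with shMETTL14, too few to be tested. The ratio of summed counts per library size was 0.465, with an exact 95% interval of 0.145 to 1.31 that covers counting error only, so a difference was not detectable at this depth. In bulk RNA, fewer cells that express a gene and less RNA in each cell cannot be told apart, and this holds for every gene described here.

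NOTCH4 (ENSG00000204301), the receptor of endothelial cells and the remaining member of the family, is not one of the 10 genes but was tested beside them. It had 107 and 127 counts with shNC and 236 and 202 with shMETTL14, a rise of 0.91 on the log2 scale (SE 0.142, adjusted p = 1.3e-05). It shares 98 exonic bases with GPSM3 on the same strand, and the part of those reads in the rise was not tested. Per kilobase of merged exons, NOTCH2 stood at 5.95 ± 0.0640 CPM with shNC and 6.27 ± 0.154 with shMETTL14, NOTCH3 at 3.18 ± 0.0556 and 3.19 ± 0.295, NOTCH4 at 0.616 ± 0.0917 and 1.16 ± 0.113, and NOTCH1 at 0.0321 ± 0.00440 and 0.0149 ± 0.000181 (SD, n = 2). The order was the same in each of the 4 libraries and no neighbours overlapped.

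DLL and Jagged ligands were far less abundant than receptors. This does not hold for the non-canonical ligand DLK1, described below. DLK1 stood at 32.4 and 34.5 CPM per kilobase with shNC and 25.9 and 24.4 with shMETTL14, and is not in the ligand sum. Summed over DLL1, DLL3, DLL4, JAG1 and JAG2, the ligands came to between 0.994 and 1.58 CPM per kilobase in a library, against 9.72 to 10.8 for the 4 receptors. JAG1 (ENSG00000101384, chr20:10637684-10673999, minus strand), a Jagged ligand that activates Notch receptors on adjacent cells, had 20 and 20 counts with shNC and 40 and 50 with shMETTL14. The corresponding levels were 1.00 and 1.04 CPM in controls and 2.04 and 2.60 CPM in knockdown cells, with no overlap.

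JAG1 thus rose by 1.17 on the log2 scale (SE 0.324, 95% interval 0.50 to 1.85, adjusted p = 0.0043), above 97.9% of all genes tested. The counts behind it are low, and the ratio of summed counts was 2.26 with an exact counting interval of 1.54 to 3.37. The call was lost with DESeq2 (log2 fold change 1.19, adjusted p = 0.066) and without shMETTL14 replicate 2 (1.00, adjusted p = 0.058), and over 11 alternatives the adjusted p ran from 0.0019 to 0.066. An antisense gene, AL050403.2, overlaps 79 exonic bases of JAG1 and had 0 counts in every library.

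DLL3 (ENSG00000090932, chr19:39498895-39508481, plus strand), a Delta-like ligand of neuroendocrine cells that acts inside the cell and inhibits Notch in the same cell, had 31 and 42 counts with shNC and 52 and 48 with shMETTL14. These were 1.56 and 2.19 CPM against 2.66 and 2.49 CPM. Both knockdown libraries were higher, but the log2 fold change of 0.46 (SE 0.276, 95% interval -0.11 to 1.03) missed the threshold (adjusted p = 0.169). The counts were low, and this interval holds both 0 and a change of 2-fold. The ratio of summed counts was 1.38, with an exact interval of 1.01 to 1.89 that covers counting error only.

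JAG2 (ENSG00000184916, chr14:105140981-105168824, minus strand), the second Jagged ligand, had 28 and 36 counts with shNC and 29 and 26 with shMETTL14, or 1.40 and 1.88 against 1.48 and 1.35 CPM. The groups overlapped, and the log2 fold change was -0.21 (SE 0.332, 95% interval -0.90 to 0.48, adjusted p = 0.623). DLL1 (ENSG00000198719, chr6:170282206-170306565, minus strand), the Delta-like ligand of neural progenitors, had 4 and 3 counts with shNC and 7 and 1 with shMETTL14 and was not tested. Its knockdown libraries enclosed the controls, and the ratio of summed counts was 1.15 with an exact interval of 0.365 to 3.73. DLL4, the endothelial ligand, had 1 and 6 counts with shNC and 0 in both shMETTL14 libraries.

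Among the DLL and Jagged ligands compared per kilobase, DLL3 was highest in every library, at 0.716 ± 0.172 CPM with shNC and 0.984 ± 0.0437 with shMETTL14. It made up a mean of 60.7% and 64.8% of the ligand sum. JAG2 came next in controls at 0.257 ± 0.0525 CPM, ahead of JAG1 at 0.110 ± 0.00312. In knockdown cells JAG1 reached 0.250 ± 0.0422 CPM and JAG2 0.221 ± 0.0144, values that overlapped between the genes, so their order there cannot be told beyond the spread. JAG1 went from a mean share of 9.56% to 16.5% of the ligand sum and JAG2 from 21.9% to 14.6%.

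**Figure D2:**
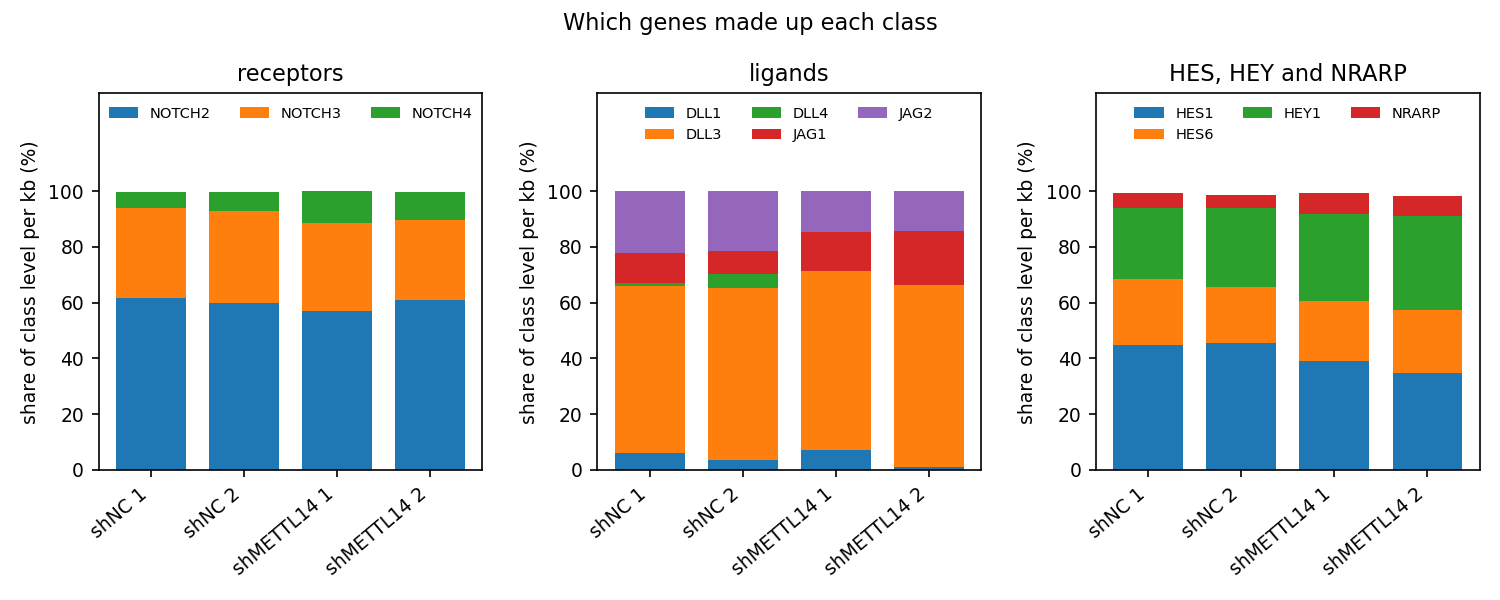
Share of each gene in the summed level of its class (CPM per kilobase of merged exons, in percent), for each of the 4 libraries; genes whose mean share was under 1% in both groups are not drawn, so bars can end just under 100. NOTCH2 made up 57.0% to 61.7% of the receptors and DLL3 59.7% to 65.3% of the DLL and Jagged ligands. HES1 made up 44.8% to 45.4% of the HES, HEY and NRARP sum with shNC and 34.8% to 38.9% with shMETTL14.

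Among the HES and HEY genes, HEY1 had the lowest adjusted p, the lowest of the 10 genes as well. HEY1 (ENSG00000164683, chr8:79764010-79767863, minus strand), a repressor induced by Notch in many tissues, had 511 and 530 counts with shNC and 768 and 853 with shMETTL14. Its levels were 25.6 and 27.7 CPM in controls and 39.2 and 44.3 CPM in knockdown cells. Both knockdown libraries stood well above both controls, and the difference of the means, 26.7 ± 1.44 against 41.8 ± 3.60 CPM (SD, n = 2), was several times the spread within either group.

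HEY1 rose by 0.65 on the log2 scale (SE 0.0799, 95% interval 0.48 to 0.81, adjusted p = 5.6e-07). It was called in all 11 alternatives, with log2 fold changes of 0.57 to 0.74 and adjusted p-values up to 3.0e-06. HES6 (ENSG00000144485, chr2:238238267-238240662, minus strand), which antagonises HES1 and favours neuronal differentiation, had 301 and 237 counts with shNC and 339 and 364 with shMETTL14. The levels were 15.1 and 12.4 against 17.3 and 18.9 CPM and the knockdown libraries lay above both controls.

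HES6 rose by 0.40 on the log2 scale (SE 0.108, 95% interval 0.17 to 0.62, adjusted p = 0.0039). The call was lost with DESeq2 (0.40, adjusted p = 0.062) and without shNC replicate 2 (0.27, adjusted p = 0.076), the lower control, and the adjusted p ran from 0.00048 to 0.076 over 11 alternatives. HES1 (ENSG00000114315, chr3:194136145-194138732, plus strand) is the archetypal Notch target, and its promoter carries the RBPJ cores marked above. It had 577 and 543 counts with shNC and 613 and 567 with shMETTL14. These were 28.9 and 28.4 against 31.3 and 29.5 CPM, higher in both knockdown libraries. The log2 fold change of 0.08 (SE 0.0775, 95% interval -0.08 to 0.25) did not pass the test (adjusted p = 0.378).

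The interval of HES1 ended at 0.25 and that of HEY1 began at 0.48. NRARP, a target gene whose product limits Notch signalling and which is not one of the 10, had 62 and 50 counts with shNC and 99 and 102 with shMETTL14, a rise from 2.86 ± 0.353 to 5.18 ± 0.172 CPM (log2 fold change 0.85, SE 0.199, adjusted p = 0.0011). It was called in all 11 alternatives. The other members of this class were scarce: HES2, HES3 and HES5 had 0 counts in every library, HEY2 had 1 in each, HES4 had 0 and 1 against 1 and 5, HES7 had 2 and 8 against 8 and 15, and HEYL had 8 and 8 against 2 and 4.

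Per kilobase, HES1 stood at 13.9 ± 0.203 CPM with shNC and 14.7 ± 0.633 with shMETTL14, HEY1 at 8.25 ± 0.446 and 12.9 ± 1.12, HES6 at 6.74 ± 0.946 and 8.89 ± 0.555, and NRARP at 1.62 ± 0.200 and 2.93 ± 0.0973. The order of the 4 was the same in every library. The nearest neighbours were HEY1 and HES6 in shNC library 1, at 7.93 and 7.41 CPM per kilobase, and HES1 and HEY1 in shMETTL14 library 2, at 14.3 and 13.7, gaps smaller than the SD between libraries of HES6 and of HEY1. The class sum per kilobase went from 31.3 and 30.3 CPM to 39.0 and 41.0 CPM.

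**Figure D3:**
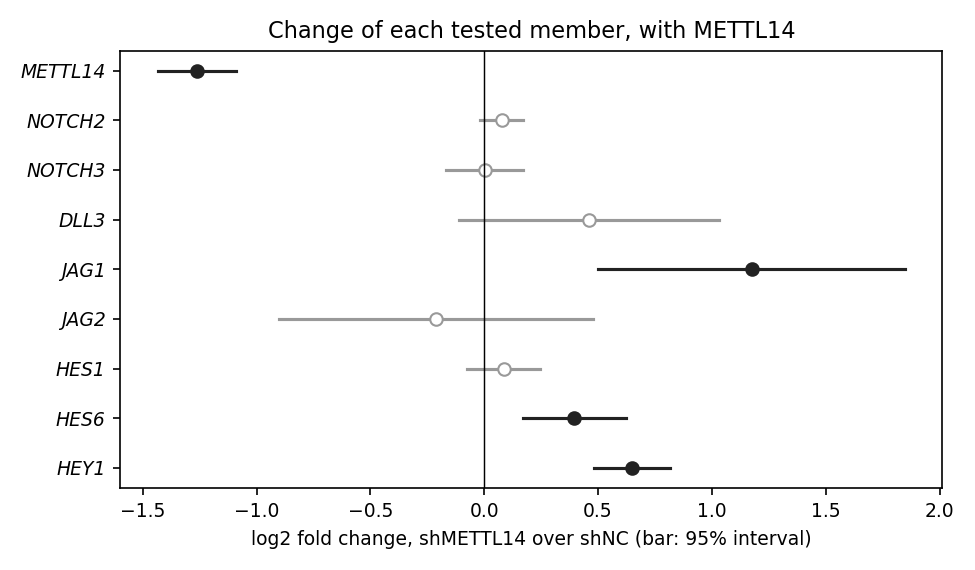
Log2 fold change of each tested Notch gene and of METTL14, shMETTL14 over shNC, with the 95% interval of the edgeR fit as a bar and filled points for genes called at an adjusted p under 0.05. HEY1 (0.65), HES6 (0.40) and JAG1 (1.17) lie to the right of 0 with intervals that exclude it, and METTL14 (-1.26) lies to the left.

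Beyond the 10 genes, 70 other genes of the pathway were listed by role, and 54 of them could be tested. Of these, 33 were called (61.1%, beside 52.5% of all genes tested), 18 higher and 15 lower. The median log2 fold change of all 54 was 0.026. The split between higher and lower moved with the scaling, to 13 and 17 with upper quartile scaling and 14 and 16 with library size alone, while the 3 called Notch genes stayed higher under both. Counts called in single roles, given below, rest on few genes each and stand beside the same 52.5% of all genes tested. Among non-canonical ligands, DLK1, a membrane protein of chromaffin and neuroblastoma cells that can inhibit Notch, fell from 3432 and 3508 counts to 2695 and 2493 (log2 fold change -0.41, SE 0.0459, adjusted p = 1.3e-07). DNER, with 9 and 11 against 14 and 12 counts, was not called, and DLK2 was too low to test.

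Among the genes that mature the receptor, 2 of 5 tested were called higher and 1 lower. FURIN, the protease of the first cleavage, and POFUT1, which adds the O-fucose that ligand binding needs, rose by 0.40 and 0.26 on the log2 scale. LFNG, a Fringe enzyme that extends this fucose and shifts the choice between Delta and Jagged ligands, fell from 70 and 61 counts to 31 and 36 (log2 fold change -0.95, SE 0.256, adjusted p = 0.0035). Its call was lost with DESeq2 (adjusted p = 0.068), and over 11 alternatives the adjusted p ran from 0.0015 to 0.068.

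The cleavage list had 8 tested genes, of which 5 were called higher and 1 lower. PSEN2, a catalytic subunit of gamma-secretase, went from 69 and 65 counts to 145 and 146, 1.13 higher on the log2 scale (SE 0.169, adjusted p = 8.1e-06). APH1B, a scaffold subunit of the same complex, went the other way, from 365 and 317 to 208 and 195 counts (log2 fold change -0.75, SE 0.108, adjusted p = 4.7e-06). ADAM10, the main ligand-dependent protease, rose by 0.34 and NCSTN, the gamma-secretase subunit that receives the substrate, by 0.17. The NCSTN call was lost in 4 of 11 alternatives.

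Ligand endocytosis, which pulls on the bound receptor, had 1 gene higher and 2 lower of 4 tested. NEURL1 and MIB2 fell by 0.85 and 0.32 on the log2 scale, calls lost in 3 and 2 of 11 alternatives, and MIB1 rose by 0.12, a call lost in 9. The value of NEURL1 was -1.28 without shMETTL14 replicate 1 and -0.51 without shMETTL14 replicate 2 (adjusted p = 0.17, the highest of its alternatives). In the nuclear activation complex, 3 of 8 were called higher and 2 lower. The Mastermind coactivators split, with MAML1 at 0.34 and MAML2 at 0.20, both higher, and MAML3 lower at -0.30. EP300, a histone acetyltransferase of the complex, rose by 0.13, a call lost in 6 alternatives, and MAML2 lost its call in 1.

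RBPJ itself, which the naming rule did not include and which was chosen after its values were seen, had 3277 and 3142 counts with shNC and 2869 and 2998 with shMETTL14. Its log2 fold change of -0.12 (SE 0.0437, adjusted p = 0.025) lost the call in 4 of 11 alternatives. Of the RBPJ corepressors, RITA1, which exports RBPJ from the nucleus, rose by 0.36, and the chromatin proteins KDM5A and NCOR1 fell by 0.15 and 0.11, calls lost in 4 and 5 alternatives. In the Groucho family, which holds corepressors that are partners of HES proteins, TLE4 rose by 0.32 and TLE5 fell by 0.15. The TLE5 call was lost in 1 of 11 alternatives, without shMETTL14 replicate 2, where its log2 fold change was -0.12.

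Genes of receptor turnover had 2 called higher and 1 lower of 8 tested. DTX1, a ubiquitin ligase that binds the receptor and is itself a Notch target in lymphocytes, had 12 and 19 counts with shNC and 3 and 0 with shMETTL14. The ratio of its summed counts was 0.0974 with an exact interval of 0.0191 to 0.312, and the adjusted p was 0.0013. The size of the DTX1 fall rests on single libraries: without shMETTL14 replicate 2 the log2 fold change was -2.32 (adjusted p = 0.049), and without shMETTL14 replicate 1 the remaining knockdown library was at 0, so no fold is given. Its adjusted p ran from 9.7e-05 to 0.049 over the alternatives. NUMBL, a relative of the Notch inhibitor NUMB, and FBXW7, the ubiquitin ligase subunit that degrades the intracellular domain, rose by 0.47 and 0.33, and NUMB was not called, with 1224 and 1279 against 1232 and 1219 counts.

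**Figure D4:**
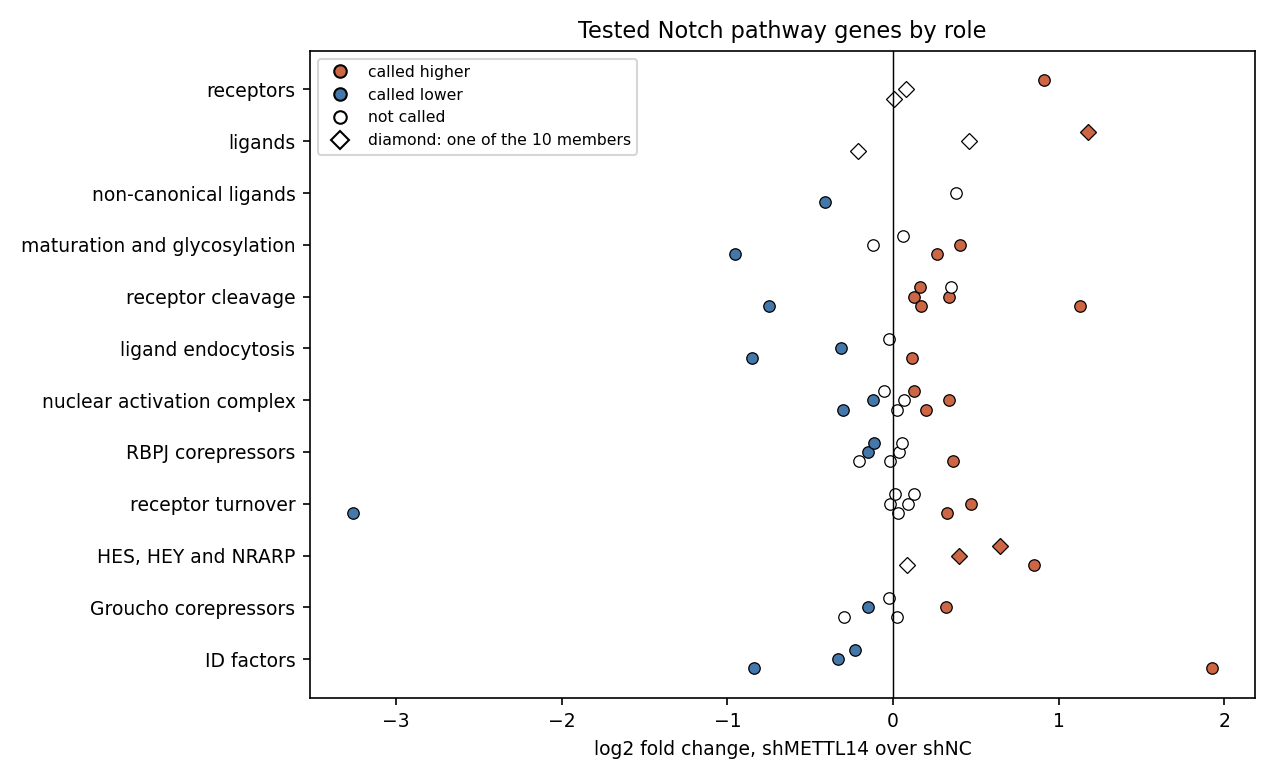
Log2 fold change, shMETTL14 over shNC, of tested genes of the Notch pathway by role; red points were called higher, blue lower and open ones not called, and diamonds are tested genes of the 10. Calls lie on both sides of 0 in most roles; the HES, HEY and NRARP row has 3 higher and 0 lower, and DTX1, whose fitted value of -3.26 rests on 3 counts or fewer per knockdown library, stands farthest left.

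Proneural factors, the genes that HES and HEY proteins repress, include genes with few or no counts. NEUROD1 had 9 and 8 counts against 0 and 0, ATOH1 0 and 1 against 8 and 6, and INSM1 5 and 1 against 0 and 1. NEUROG1, NEUROG2 and NEUROD4 had 0 in every library.

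The ID factors, dimerisation inhibitors of proneural proteins, were all called, beside 52.5% of all genes tested. ID1, ID3 and ID2 fell by 0.84, 0.33 and 0.23 on the log2 scale, and ID1 went from 2419 and 2517 counts to 1356 and 1382. ID4, with 22 and 6 counts against 57 and 49, rose by 1.92 on the same scale (SE 0.388, adjusted p = 0.00026). Its controls lay far apart, and the log2 fold change was 3.09 without shNC replicate 1 and 1.31 without shNC replicate 2.

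Some markers of cell identity also differed between groups. Their calls stand beside 52.5% of all genes tested, 27.2% higher and 25.3% lower. Of 8 noradrenergic markers of neuroblastoma, all counted in every library, 6 were called lower and 1 higher. Their summed level lay between 2391 and 2411 CPM with shNC and 2049 and 2076 CPM with shMETTL14. HAND2, the largest term, had a mean of 709 CPM with shNC and 579 with shMETTL14. It shares 867 exonic bases with antisense HAND2-AS1, whose counts fell from 12481 and 11834 to 5595 and 5376. The part of those reads in HAND2 was not tested. Of 7 mesenchymal markers, 2 were called higher and 3 lower of 6 tested, with summed levels of 2453 to 2523 and 2510 to 2570 CPM. Most of both sums was VIM, with means of 1937 CPM with shNC and 1980 with shMETTL14. The defining gene PRRX1 had 0 to 3 counts in a library. Of 4 Schwann cell markers, 1 was called lower of 2 tested, with sums of 4.65 to 5.07 and 3.37 to 3.84 CPM, and SOX10 had 0 counts in every library. The part of these markers in the changes of HEY1, HES6 and JAG1 was not tested.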

How the data were processed

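RNA was measured in 2 shNC and 2 shMETTL14 libraries of SK-N-BE(2) cells; sequencing was paired-end on an Illumina NovaSeq. The authors deposited 1 table of counts, whole reads per Ensembl ID that had not been normalized. The submitters' processing notes name HISAT2 2.1.0, StringTie 1.3.6, HTSeq 0.13.5 and edgeR, and the builds GRCh38 and hg38, whereas the annotation release, the counting options and the strand setting are not given in the sources used here. Without the strand setting, reads of a gene and its antisense partner cannot be told apart. The 5 lines that name no gene held 19.1% to 19.9% of a library's counts and were left out. Gene totals were 19608332 and 18925786 (shNC) and 19886214 and 19603794 (shMETTL14). Replicates differed by more than sampling noise, with a mean chi-square per gene of 2.80 and 2.30 within groups. No other sample columns were present (0).

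Counts were tested with edgeR 4.0.16 (R 4.3.3): TMM scaling, filterByExpr (minimum count 10, minimum total 15), group as the only term, quasi-likelihood F-test and Benjamini-Hochberg adjustment over 16309 genes, with a call at an adjusted p under 0.05. Standard errors and 95% intervals were derived from the F statistic. For genes with few counts, a ratio of summed counts per library size is given with an exact binomial interval. Beyond counting error, intervals hold only the variation among the 4 libraries. The procedure was first tested on simulated counts with the same relative spread for every gene, which real genes need not share. It recovered 74% of 200 genes changed by 0.5 on the log2 scale and 93.5% of those changed by 1. Of the calls made there, 5.1% and 6.5% were false. The changed genes were drawn only from genes above a minimum mean count in shNC. They were also a far smaller share of all genes than was called in the data. These percentages therefore need not hold for genes with few counts or for these data. Symbols came from a table of gene names (60401 of 60671 IDs matched), and coordinates and merged exon lengths from GENCODE 29 on GRCh38 (58453 matched), which may not be the authors' annotation.

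All 10 genes and METTL14 were named, as were, in each of 13 role lists, the called genes of largest absolute log2 fold change, at most 4, except that 2 genes of the lists are not reported here singly. The members and lists were chosen with earlier results of these data known. Alternatives were RLE, upper quartile and library size scaling, no filter, at least 10 counts in every library, a replicate block, DESeq2 1.42.0 and leaving out each library, where the lone sample of a group was assumed to vary like the other group.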

Additional observations from a re-analysis of the deposited data

How the results depend on the processing

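The 3 calls among the Notch genes held under RLE, upper quartile and library size scaling, both filters and the replicate block. DESeq2 called 1 of them (HEY1), 21 other pathway genes against 33, and 5546 genes against 8561 in all. Asking also for a change of at least 2-fold left 1 Notch gene (JAG1) and 1433 genes in all. Without 1 library, between 2 and 3 Notch genes were called, and between 26 and 29 other pathway genes. Among the named genes of the latter, calls were lost without shNC replicate 1 for NCSTN, NEURL1, MIB1 and NCOR1 (adjusted p 0.063 to 0.24), without shNC replicate 2 for MIB2, MIB1, EP300, KDM5A and RBPJ (0.060 to 0.17), without shMETTL14 replicate 1 for EP300, NCOR1 and RBPJ (0.11 to 0.35), and without shMETTL14 replicate 2 for NCSTN, NEURL1, MIB1, KDM5A, NCOR1 and TLE5 (0.052 to 0.33). Fewer libraries were fitted there, and otherwise the cause of lost calls was not tested.

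NOTCH3, at 0.0027 on the log2 scale, changed sign with RLE (-0.0015), upper quartile (-0.065) and library size scaling (-0.042) and with genes under 10 counts in any library left out (-0.015), and ran from -0.091 to 0.10 without 1 library. JAG2 ran from -0.41 to 0.017 without 1 library. The cause was not tested. Of the values for the 8 tested Notch genes under 11 alternatives, 77 kept direction and side of the threshold, 4 lost their call and 7 changed sign; of those for other named pathway genes, 299 kept both, 40 lost a call and 0 changed sign. METTL14 kept its call in all 11 (log2 fold change -1.33 to -1.21).

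Among all called genes the higher share was 51.8%, but 41.7% with upper quartile scaling (3550 higher, 4961 lower) and 44.9% with library size alone (3812 higher, 4671 lower), where the median of all genes shifted by -0.068 and -0.045 on the log2 scale.

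The replicate numbers share only a number: deviations of same-numbered libraries correlated across 16309 genes with Pearson's r = 0.013 and Spearman's rho = 0.025, a description over genes that are not independent. With the replicate block, 8926 genes, 3 Notch genes and 33 other pathway genes were called. Depth limits NOTCH1 and DLL1, with 1 to 7 counts per library, and DLL3, JAG1 and JAG2, with 20 to 52.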
